A study of Mus musculus with 6 samples.

Results

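PolyI:C pretreatment was compared with pancreatitis alone in the pancreas of 4 of the 6 wild-type mice of the series. By their treatment labels, 2 mice received cerulein only (AP mice) and 2 received polyI:C before cerulein (polyI:C-pretreated AP mice, called pretreated mice from here on). All 22556 genes listed in the deposited tables were considered, and 16814 of them had a mean of at least 1 TPM (transcript abundance corrected for gene length and library size) and were tested. The remaining 2 mice received saline (saline mice), and their levels are given beside the others. All mice were male C57BL/6, 8 weeks old by the labels. Cerulein was injected into the peritoneum every hour, and the pancreas was taken about a day after the first injection. The methods name more than a single interval between polyI:C and cerulein, and the interval for the sequenced mice is not given in the sources used here. The study calls its sequencing profiles representative of repeated experiments, but the sources used here do not say which experiment each mouse came from, so the p-values measure only the spread between these mice. Throughout, the levels of a group are given for replicate 1 and then replicate 2, with n = 2.

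PolyI:C is a synthetic double-stranded RNA. It is recognised by TLR3 in endosomes and by the helicases MDA5 and RIG-I in the cytosol, and the cells answer with type I interferon. Interferon binds the receptor IFNAR, and antiviral and antigen-presentation genes are then switched on. Cerulein is an analogue of cholecystokinin, the gut hormone that makes pancreatic acinar cells secrete digestive enzymes. At high doses it injures these cells, which lose part of their differentiated programme, while monocytes and neutrophils move into the tissue.

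Beyond their groups, some libraries stood apart. In the pretreated mouse 2, 296 genes with at least 300 exonic bases were at least 4-fold above all other mice, against 36 to 53 such genes in each other mouse. They included genes of the small intestinal epithelium. Fabp1 and Fabp2, the fatty acid-binding proteins of enterocytes, were at 1430 and 1083 TPM in that mouse and at most at 3.35 and 1.46 TPM in any other. The intestinal transcription factors Cdx1 and Cdx2 were at 10.7 and 14.6 TPM and were listed at 0 in the other 5 mice. The 15 genes of an intestinal list, chosen after the values were seen, summed to 4646 TPM in this mouse and to between 11.2 and 21.5 TPM elsewhere. The AP mouse 2 held more B cell transcripts. The B and plasma cell genes summed to 83.3 TPM there and to 9.05 TPM in AP mouse 1, and they summed to 21.5 and 71.5 TPM in pretreated mice. From the spacing of low TPM values, the libraries held between about 3296942 and 10852068 reads, with the saline mice the shallowest. The acinar genes Sycn, Spink1 and Klk1 were between 8709 and 98753 TPM in every mouse.

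**Figure D1:**
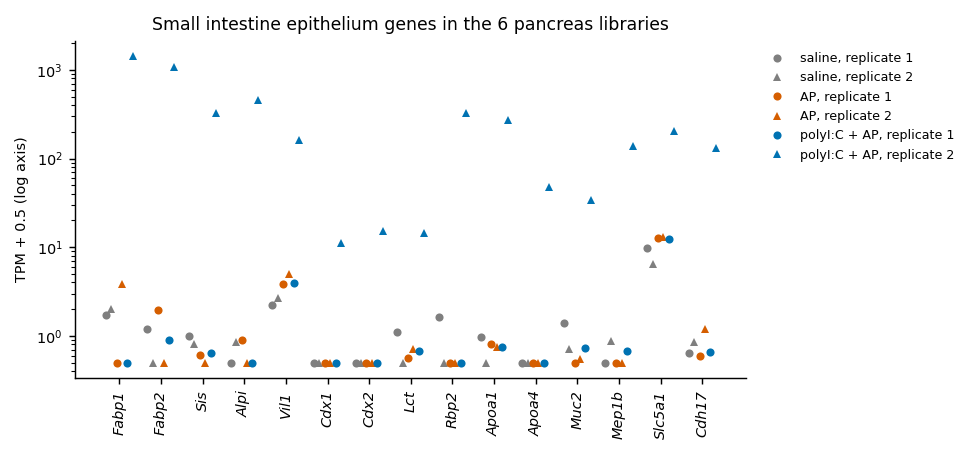
Levels of 15 small intestine epithelium genes (TPM + 0.5, log axis) in each of the 6 libraries, with colour for the group and shape for the replicate. The pretreated mouse 2 is the highest for every gene, and the other 5 mice lie together near 0 for most of them.

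With polyI:C pretreatment, the pancreas held more interferon-response and MHC class I transcripts, more of several acinar regulators, and fewer monocyte, macrophage and MHC class II transcripts than with cerulein alone. At an adjusted p of at most 0.05 (limma on log2(TPM + 0.5), Benjamini-Hochberg adjustment over all tested genes) and a change of at least 2-fold, 74 genes were raised, 0.440% of those tested, and 68 were lowered, 0.404% of those tested. The median log2 fold change was 1.71 among the raised genes, −2.04 among the lowered genes and 0.04 over all tested genes. In all 142 genes the levels of the groups did not overlap, as they did not for 27.7% (polyI:C higher) and 22.1% (polyI:C lower) of all tested genes. The level was also at least 2-fold above the AP mean in the pretreated mouse 1 alone for 69 of the 74 raised genes, and at least 2-fold below it for 66 of the 68 lowered genes. The calls used the values of this same mouse, so these counts are no independent check. None of the 74 raised genes was among the 296 that stood apart in mouse 2. Those genes were by definition far above pretreated mouse 1 as well, and this spread within the group makes a call unlikely. Smaller intestinal contributions to the raised genes were not tested.

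The number of calls depended on single mice. Without AP mouse 1, without AP mouse 2 or without pretreated mouse 2, no gene passed the adjusted limma test, and the lone mouse of the group was then assumed to vary like the others. At an unadjusted p of at most 0.05 and 2-fold, those fits gave 355, 379 and 258 higher genes and 366, 268 and 363 lower genes. The fit without pretreated mouse 1 gave 61 raised genes, of which 5 were among the 74 and 54 were among those that stood apart in mouse 2, and it gave 5 lowered genes. With all mice but a prior variance that follows mean log2 TPM, 14 genes were raised and 14 lowered, and voom on estimated reads gave 112 and 210.

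**Figure D2:**
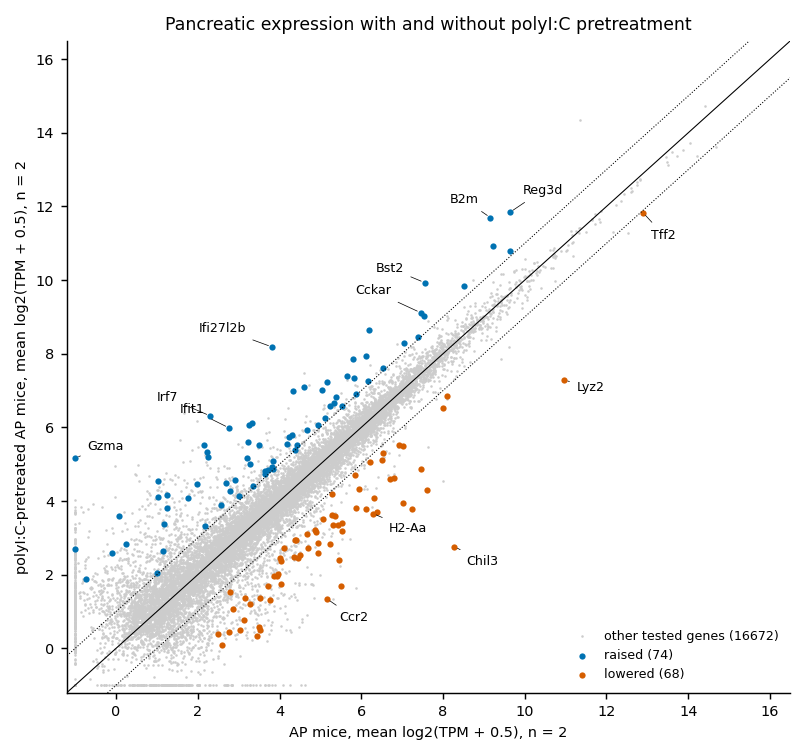
Mean log2(TPM + 0.5) of each tested gene in AP mice (horizontal axis) and in pretreated mice (vertical axis), 2 mice each. Solid line, equal levels. Dotted lines, 2-fold differences. Blue, the 74 raised genes. Orange, the 68 lowered genes. Irf7, Ifi27l2b and B2m lie above the lines and Chil3, Lyz2 and Ccr2 below them.

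The interferon programme, with the longest list tested, held more raised genes than any other list. Over all tested genes 0.440% were raised, and 27.7% were higher in both pretreated mice than in both AP mice. Of 49 tested type I interferon effectors, 16 rose and none fell, the median log2 fold change was 1.09, and in 42 of them both pretreated mice were above both AP mice. The median was 1.04 in mouse 1 alone and 1.09 in mouse 2 alone. Irf7 (ENSMUSG00000025498, chromosome 7, 141262706 to 141266481, minus strand, GRCm38), the transcription factor that amplifies interferon production, was at 3.15 and 6.14 TPM in AP mice and at 79.0 and 79.2 TPM after polyI:C, with 0.604 and 0.878 TPM in saline mice. Its mean was 17.0-fold higher than in AP mice (log2 fold change 4.01 ± 0.28 SE, limma adjusted p = 0.00371). It was the member of the 17 tested interferon signalling genes that rose. Irf5, a related factor expressed mainly in myeloid cells, fell from 19.6 and 23.4 TPM to 6.07 and 4.15 TPM (log2 fold change −1.99 ± 0.27 SE, adjusted p = 0.0273). The receptor and kinase genes did not pass the test. Ifnar1 was at 42.2 and 38.7 TPM in AP mice and at 33.7 and 30.8 TPM after polyI:C, and Jak1 was at 143 and 141 TPM against 169 and 146 TPM. Irf9 had an adjusted p of 0.0344 but a change under 2-fold (log2 fold change 0.99).

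Among the effectors, the IFIT genes encode proteins that bind foreign RNA. Ifit1 was at 1.29 and 3.17 TPM in saline mice, 4.05 and 9.61 TPM in AP mice and 62.2 and 63.7 TPM after polyI:C (log2 fold change 3.23 ± 0.45 SE, adjusted p = 0.0312). Ifit3 rose from 19.3 and 28.8 TPM to 142 and 129 TPM, and its close copy Ifit3b from 3.28 and 4.81 TPM to 51.3 and 39.7 TPM. Of the 6 listed genes of the oligoadenylate synthetase family, whose active members switch on RNase L when they bind double-stranded RNA, 3 rose. Oas1a went from 15.1 and 25.1 TPM to 123 and 129 TPM, Oas1g from 1.86 and 1.87 TPM to 16.1 and 19.0 TPM, and Oasl2 from 3.23 and 5.54 TPM to 32.3 and 39.9 TPM. Oas1g was at 0.182 and 0 TPM in saline mice. It reached the mean of 1 TPM needed for testing only through the pretreated mice. Oas2 (0.784 and 3.67 TPM against 13.6 and 16.9 TPM), Oas3 and Oasl1 did not pass (adjusted p = 0.0744, 0.0872 and 0.25). Ifit3 and Ifit3b, and Oas1a and Oas1g, share much of their sequence, so the division of reads between such copies is uncertain. Isg15, a ubiquitin-like modifier, rose from 6.81 and 13.2 TPM to 65.6 and 73.8 TPM (log2 fold change 2.81 ± 0.36 SE, adjusted p = 0.0247).

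Of the effectors that rose, the most abundant were Ifitm3 and Bst2. Bst2 (tetherin), which holds budding viruses at the cell surface, rose from 172 and 202 TPM to 961 and 994 TPM. Ifitm3, which blocks the fusion of viruses with endosomes, rose from 605 and 594 TPM to 1847 and 2039.6 TPM, and the saline mice had 156 and 94.4 TPM. For both genes the AP mice already lay above the saline mice and the pretreated mice above these. Other effectors past the test were Ifi44, Zbp1, which senses Z-form nucleic acid, Xaf1, Rtp4, Lgals9, Lgals3bp and Dtx3l. Ifi27l2a was more abundant than Bst2 but did not pass (354 and 516 TPM against 1071 and 977 TPM, adjusted p = 0.12). Other members that did not pass included Mx1 (3.58 and 4.92 TPM against 4.20 and 3.05 TPM), Rsad2 (70.3 and 94.8 TPM against 157 and 137 TPM, adjusted p = 0.0934) and Usp18 (7.40 and 21.1 TPM against 86.5 and 67.0 TPM, adjusted p = 0.19). Ifi27l2b, which was on no list, rose from 8.99 and 20.3 TPM to 209 and 404 TPM (log2 fold change 4.37 ± 0.56 SE, adjusted p = 0.0250).

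Other large rises lay outside the lists. Ly6a, the interferon-inducible surface antigen Sca-1, was at 9.72 and 12.9 TPM in saline mice, 61.8 and 85.9 TPM in AP mice and 375 and 429 TPM after polyI:C (log2 fold change 2.45 ± 0.20 SE, adjusted p = 0.00576). Apol9b, of the apolipoprotein L family, rose from 1.21 and 1.92 TPM to 18.3 and 28.1 TPM. The lipocalin Apod rose from 4.25 and 4.06 TPM to 55.4 and 28.4 TPM, and the potassium channel gene Kcnj15 from 2.82 and 4.20 TPM to 26.7 and 17.6 TPM. Apod and Kcnj15 were higher in pretreated mouse 1 than in the mouse with intestinal transcripts.

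Sensors of double-stranded RNA gave a single call. Of 11 tested genes, Dhx58, which encodes the helicase LGP2, rose from 5.69 and 7.15 TPM to 17.95 and 19.7 TPM (log2 fold change 1.49 ± 0.23 SE, adjusted p = 0.0417). Ifih1, the gene of MDA5, was at 24.8 and 27.2 TPM in AP mice and at 42.0 and 46.4 TPM after polyI:C, and Ddx58, the gene of RIG-I, was at 17.8 and 24.1 TPM against 32.9 and 34.3 TPM. Neither passed the test. Of 13 tested guanylate-binding and immunity-related GTPases, which attack vacuoles that hold pathogens, Gbp3 rose from 6.99 and 11.3 TPM to 48.3 and 47.9 TPM. The list's median was 0.93, and in 10 of the 13 genes both pretreated mice were above both AP mice.

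The promoters of the interferon effectors were read from RefSeq (GRCm38.p6, 250 bases before to 50 after each start) and searched on both strands for GAAANNGAA, the core of the interferon-stimulated response element. It occurred in 10 of the 14 raised effectors with a promoter in the table, and in 21 of 38 listed effectors, raised or not. It also occurred in 18 of 61 raised genes (29.5%), in 10 of 53 lowered genes (18.9%) and in 8.83% of the 10856 tested genes with a promoter. Of the 48 raised genes on none of the interferon, GTPase and MHC class I lists, 38 had a promoter in the table, and 4 of these held it. The core of STAT dimer sites, TTCNNNGAA, was also searched. It occurred in 9.84% of raised, 7.55% of lowered and 8.32% of all tested genes with a promoter. The promoters of the 5 interferon-response genes with the largest rises among those with a match are shown. Capitals mark each match on either strand, and overlapping matches run together.

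Ifit3b, chr19:34607707-34608006, plus strand, GRCm38.p6: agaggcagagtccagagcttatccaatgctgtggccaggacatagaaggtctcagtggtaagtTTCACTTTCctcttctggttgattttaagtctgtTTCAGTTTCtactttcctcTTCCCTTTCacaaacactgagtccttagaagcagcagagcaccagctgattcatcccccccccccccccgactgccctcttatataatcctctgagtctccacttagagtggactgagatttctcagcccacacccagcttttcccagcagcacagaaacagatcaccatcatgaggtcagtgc
Ifit1, chr19:34640639-34640938, plus strand, GRCm38.p6: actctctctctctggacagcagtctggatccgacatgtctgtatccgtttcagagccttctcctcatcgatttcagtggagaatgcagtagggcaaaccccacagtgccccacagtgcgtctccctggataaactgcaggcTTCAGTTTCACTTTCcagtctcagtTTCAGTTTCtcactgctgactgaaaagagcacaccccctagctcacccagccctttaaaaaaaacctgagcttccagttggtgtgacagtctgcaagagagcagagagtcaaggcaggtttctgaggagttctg
Ifi44, chr3:151749861-151750160, minus strand, GRCm38.p6: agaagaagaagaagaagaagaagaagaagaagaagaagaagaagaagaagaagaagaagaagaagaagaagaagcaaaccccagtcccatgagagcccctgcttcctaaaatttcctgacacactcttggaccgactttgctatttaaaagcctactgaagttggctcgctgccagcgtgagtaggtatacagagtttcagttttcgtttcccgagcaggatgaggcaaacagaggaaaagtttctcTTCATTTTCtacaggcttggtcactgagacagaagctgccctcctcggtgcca
Oas1g, chr5:120887564-120887863, minus strand, GRCm38.p6: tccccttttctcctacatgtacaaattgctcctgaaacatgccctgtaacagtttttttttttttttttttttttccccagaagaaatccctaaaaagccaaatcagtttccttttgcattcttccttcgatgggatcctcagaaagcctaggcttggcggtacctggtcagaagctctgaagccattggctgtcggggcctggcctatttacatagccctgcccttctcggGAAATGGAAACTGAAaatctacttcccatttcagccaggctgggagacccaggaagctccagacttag
Isg15, chr4:156200769-156201068, minus strand, GRCm38.p6: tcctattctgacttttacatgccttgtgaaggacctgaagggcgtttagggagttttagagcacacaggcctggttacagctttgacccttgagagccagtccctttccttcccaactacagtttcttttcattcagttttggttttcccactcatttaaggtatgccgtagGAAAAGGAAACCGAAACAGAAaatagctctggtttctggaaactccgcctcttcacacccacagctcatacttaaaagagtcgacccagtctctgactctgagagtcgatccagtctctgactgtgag

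In Ifit3b the matches were spread over 3 separate places, and in Isg15 overlapping matches formed a single run. A match is a description of the letters, and no binding was measured here.

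Antigen presentation moved in opposite directions for the classes of MHC molecules. MHC class I molecules present peptides from inside the cell on nearly all cell types, while class II molecules are mostly limited to dendritic cells, macrophages and B cells. Of 21 tested class I genes, 7 rose and none fell, with a median of 0.99 (0.91 in mouse 1 alone and 0.99 in mouse 2 alone), and 19 were higher in both pretreated mice than in both AP mice. B2m (chromosome 2, 122147686 to 122153083), the invariant chain of class I, was at 222 and 193 TPM in saline mice, 494 and 659 TPM in AP mice and 3138 and 3521 TPM after polyI:C. This was a 5.78-fold higher mean than in AP mice (log2 fold change 2.54 ± 0.16 SE, adjusted p = 0.00371). The heavy chains H2-K1 and H2-D1 rose less, from 348 and 379 TPM to 918 and 911 TPM and from 708 and 889 TPM to 1833 and 1696 TPM. The non-classical genes H2-Q6 (5.63 and 14.5 TPM to 68.3 and 65.8 TPM), H2-Q7, H2-T23 and H2-T22 also rose. H2 genes resemble each other closely, so the values of single members are uncertain. Tapasin (Tapbp) had an adjusted p of 0.0280 with a change just under 2-fold (111 and 105 TPM against 220 and 210 TPM). The peptide transporter Tap1 was at 27.0 and 29.1 TPM against 48.0 and 43.7 TPM (adjusted p = 0.21).

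Of 9 tested class II genes, 3 fell and none rose, with a median of −2.06. H2-Aa (chromosome 17, 34282744 to 34287823), the alpha chain of the I-A molecule, was at 34.1 and 28.8 TPM in saline mice, 56.8 and 106 TPM in AP mice and 14.5 and 10.1 TPM after polyI:C (log2 fold change −2.62 ± 0.31 SE, adjusted p = 0.0207). H2-Ab1 fell from 51.9 and 91.7 TPM to 12.6 and 13.8 TPM, and Cd74, the invariant chain, from 74.8 and 144 TPM to 20.95 and 26.8 TPM. For all 3 the AP mouse 2, which also held more B cell transcripts, was the highest, and AP mouse 1 was still above both pretreated mice. The list's median was −1.32 without AP mouse 2 and −2.58 without AP mouse 1.

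**Figure D3:**
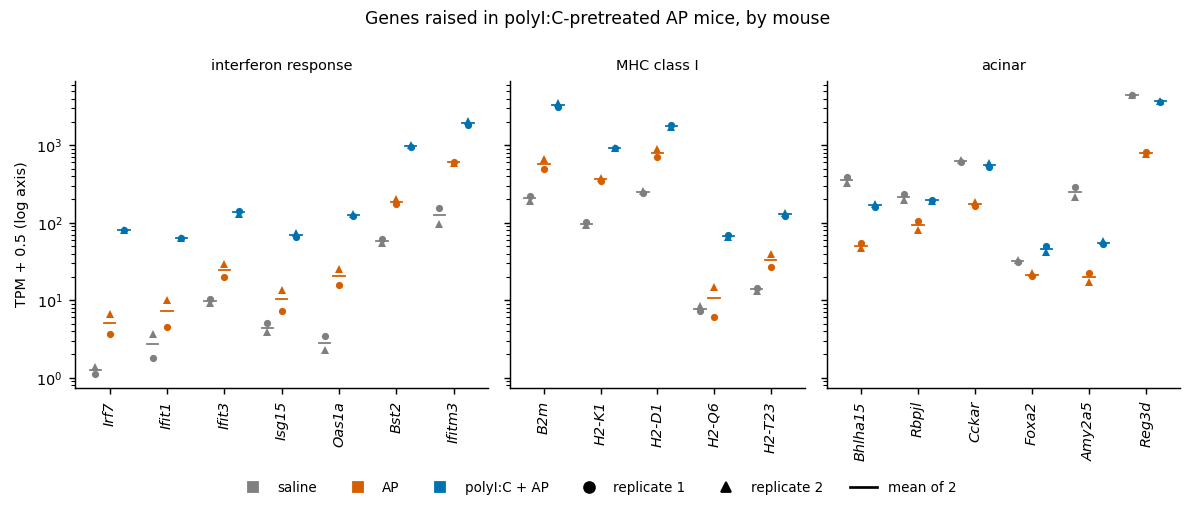
Levels (TPM + 0.5, log axis) of interferon-response, MHC class I and acinar genes in each mouse, with a bar at the mean of the 2 mice of a group. For the interferon-response and class I genes the pretreated mice lie above the AP mice and the saline mice, while for Bhlha15, Rbpjl, Cckar and Reg3d they lie between the AP and the saline mice or near the latter.

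The acinar programme divided. Of 14 tested acinar transcription factors and receptors, 4 rose and none fell, the median was 0.64, and 11 were higher in both pretreated mice than in both AP mice. Cckar (chromosome 5, 53697776 to 53707705), the cholecystokinin receptor on which cerulein acts, was at 612 and 653 TPM in saline mice, 166 and 184 TPM in AP mice and 517 and 594 TPM after polyI:C (log2 fold change 1.66 ± 0.11 SE, adjusted p = 0.00371). Bhlha15 (chromosome 5, 144190286 to 144194441), which encodes MIST1, a factor that organises the secretory apparatus, was at 391 and 326, then 53.6 and 46.4, then 161 and 171 TPM in the same order of groups (log2 fold change 1.73 ± 0.12 SE, adjusted p = 0.00397). Rbpjl, a subunit of the acinar PTF1 complex, rose from 104 and 79.8 TPM to 196 and 191 TPM, and Foxa2, a factor of foregut endoderm, from 20.1 and 21.8 TPM to 49.7 and 41.5 TPM. Cckar, Bhlha15 and Rbpjl were each higher in saline mice than in AP mice. Ptf1a itself was at 55.2 and 43.4 TPM in AP mice and at 67.3 and 98.3 TPM after polyI:C, and did not pass the test (adjusted p = 0.20). Nr5a2, which works with PTF1, was at 107 and 105 TPM against 165 and 145 TPM (adjusted p = 0.0613).

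Among the secreted products a single gene passed. Of 16 tested acinar enzyme and granule genes, which hold digestive enzymes and granule proteins, Amy2a5, a pancreatic amylase, rose from 22.1 and 16.9 TPM to 52.6 and 57.2 TPM, far under the 290 and 213 TPM of the saline mice. The other 15 did not pass, and the list's median was −0.31. Sycn (syncollin), a zymogen granule protein and the most abundant of them in saline and AP mice, was at 98753 and 86866 TPM in saline mice, 31898 and 21348 TPM in AP mice and 14466 and 11044 TPM after polyI:C (log2 fold change −1.05, adjusted p = 0.0917). Spink1, the trypsin inhibitor, was at 23568 and 19872 TPM in AP mice and at 25577 and 28861 TPM after polyI:C. The list named 39 genes, and those beyond the 16 were not analysed here, so most of the list is not covered. Multigene families such as the trypsinogens are uncertain where copies share reads.

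Several genes outside the acinar lists, of which Rgs11 and Gamt were chosen after their values were seen, showed the same order of groups as Cckar. Reg3d (chromosome 6, 78375874 to 78378865), a secreted C-type lectin counted in the duct and metaplasia list, was at 4415 and 4477 TPM in saline mice, 825 and 774 TPM in AP mice and 3598 and 3758 TPM after polyI:C (log2 fold change 2.20 ± 0.09 SE, adjusted p = 0.0011). Its relative Reg3a, given without its saline levels, was at 2829 and 2387 TPM in AP mice and at 19166 and 22317 TPM after polyI:C. Reg3a missed the threshold (adjusted p = 0.0667), and its order of groups is not described here. Rgs11, a regulator of G protein signalling, went from 106 and 114 TPM in saline mice to 8.85 and 9.60 TPM in AP mice and was at 32.4 and 31.4 TPM after polyI:C. Gamt, which makes creatine, rose from 45.6 and 45.6 TPM to 86.4 and 103 TPM, and Arntl (BMAL1), a core factor of the circadian clock, from 8.82 and 10.8 TPM to 19.9 and 21.4 TPM, the call among 17 tested clock genes.

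Aldh1a1, Aldh1a7, Gstm1, Gsta3 and Nr1h4 were raised genes on no list, and were picked after their values were seen. The retinaldehyde dehydrogenase Aldh1a1 rose from 182 and 185 TPM to 440 and 609 TPM, above the saline mice (236 and 305 TPM). Aldh1a7, a close relative, rose from 41.2 and 41.2 TPM to 110 and 116 TPM. The glutathione transferases Gstm1 (57.1 and 55.9 TPM to 172 and 151 TPM) and Gsta3 (34.9 and 40.1 TPM to 92.5 and 99.7 TPM) rose as well. Nr1h4, the gene of the bile acid receptor FXR, rose from 30.3 and 20.7 TPM to 56.5 and 64.4 TPM. For these 5 genes, as for all 74 raised genes, the pretreated mouse 1, which lacked the intestinal transcripts, was above both AP mice. The genes were called on these same values, so an intestinal contribution was not tested. Of 20 tested Nrf2 and antioxidant genes none passed, with a median of 0.36. The rate-limiting enzyme of glutathione synthesis, Gclc, was at 356 and 455 TPM in AP mice and at 773 and 510 TPM after polyI:C (adjusted p = 0.25).

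Gzma, Cxcl9 and C4b were each raised. Gzma (chromosome 13, 113093825 to 113100981), the granzyme A protease of cytotoxic lymphocytes, was listed at 0 in the saline and AP mice and at 26.9 and 47.0 TPM after polyI:C (limma adjusted p = 0.00371). It passed the filter of 1 TPM only through the pretreated mice. Its values of 0 held no spread, so the p-value carries little weight. Gzma was the member that passed among 9 tested T, NK and cytotoxic lymphocyte genes. The T cell receptor gene Cd3e was at most at 0.349 TPM in all 6 mice, the NK cell gene Ncr1 was at 1.42 and 0.970 TPM after polyI:C, and Gzmb was at 0.660 and 0.522 TPM in AP mice and at 4.57 and 3.85 TPM after polyI:C (adjusted p = 0.18). The summed level of the 25 listed genes was 15.1 and 23.7 TPM in AP mice and 53.3 and 69.7 TPM after polyI:C. Without Gzma the sum after polyI:C was 26.4 and 22.7 TPM, and the median over the 9 tested genes was −0.23. Cxcl9, an interferon-gamma-induced chemokine for T cells, rose from 0.431 and 1.02 TPM to 5.74 and 7.54 TPM (adjusted p = 0.0497). Its mean was 0.469 TPM in saline and 0.726 TPM in AP mice, so it too passed the filter only through the pretreated mice. The complement gene C4b rose from 30.6 and 40.4 TPM to 126 and 176 TPM, while Cfp (properdin), which myeloid cells secrete, fell from 51.5 and 66.5 TPM to 16.3 and 11.3 TPM. The 18 tested complement genes thus held a call in each direction, with a median of −0.20.

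**Figure D4:**
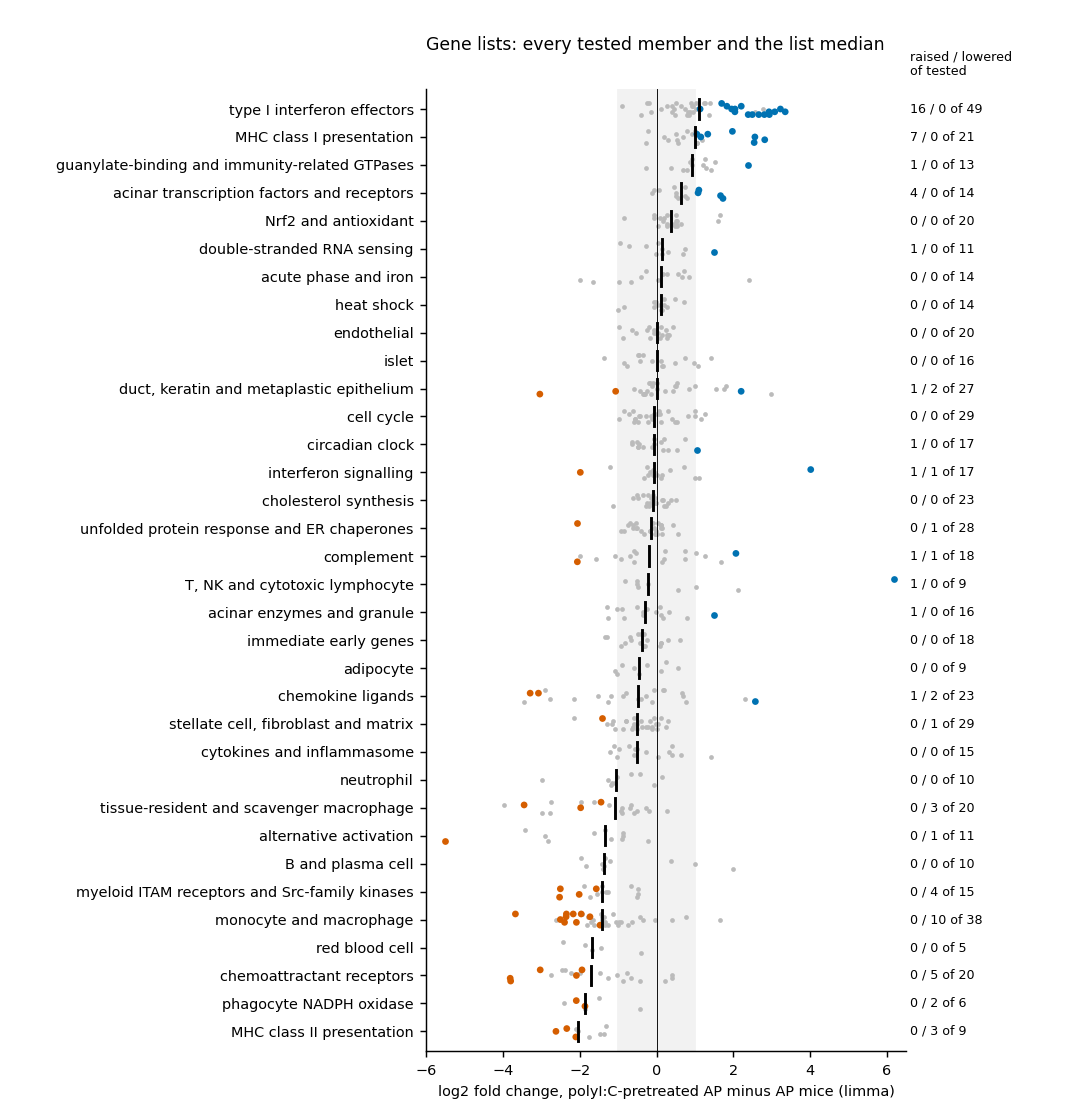
Log2 fold change (pretreated minus AP mice, limma) of every tested member of 34 gene lists, with a black bar at each list's median and the counts raised and lowered at the right. Blue and orange points passed the test, grey points did not, and the grey band spans changes under 2-fold. Type I interferon effectors (median 1.09) stand at the top and MHC class II genes (median −2.06) at the bottom.

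Genes of monocytes and macrophages, among the longest lists tested, held more lowered genes than any other list. Over all tested genes 0.404% were lowered, and 22.1% were lower in both pretreated mice than in both AP mice. Of the 38 tested monocyte and macrophage genes, 10 fell and none rose, the median was −1.43, and in 35 both pretreated mice were below both AP mice. The median was −1.50 in mouse 1 alone and −1.48 in mouse 2 alone. The list summed to 713 and 487 TPM in saline mice, 3173 and 3594 TPM in AP mice and 898 and 1223 TPM after polyI:C. In whole tissue, fewer cells of a type and less RNA per cell cannot be told apart. By flow cytometry, the study reports that polyI:C did not affect macrophage infiltration in AP mice, while neutrophils were fewer. The study counted as macrophages the cells that carried both CD11b and the Adgre1 protein, and CD11b also marked its neutrophils. Itgam, the gene of CD11b, fell here (log2 fold change −2.36, limma adjusted p = 0.0191). Adgre1 was lower but did not pass (log2 fold change −1.82, adjusted p = 0.12). Why the macrophage transcripts and the study's macrophage counts differ was not tested. Lyz2 (chromosome 10, 117277331 to 117282321), the macrophage lysozyme, was at 444 and 307 TPM in saline mice, 1891 and 2118 TPM in AP mice and 203 and 119 TPM after polyI:C, 12.4-fold lower than in AP mice (log2 fold change −3.68 ± 0.27 SE, adjusted p = 0.00441). Its copy Lyz1 was at 8.15 and 112 TPM after polyI:C, high in the mouse with intestinal transcripts, as was Plac8 (60.7 and 394 TPM). The macrophage growth factor receptor Csf1r fell from 34.3 and 44.5 TPM to 10.02 and 9.26 TPM, under the 20.9 and 19.0 TPM of the saline mice. The integrin Itgam (CD11b), the Fc receptor Fcgr1, the scavenger receptor Msr1 and the lipid sensor Trem2 fell by between 2.35 and 2.51 on the log2 scale. Trem2 averaged 0.158 TPM in saline and 0.596 TPM in pretreated mice, so it passed the filter of 1 TPM only through the AP mice. Some members had like levels in both groups. Cd14, the endotoxin co-receptor, was at 218 and 222 TPM in AP mice and at 216 and 209 TPM after polyI:C, and Ly6c2, a marker of inflammatory monocytes, was at 4.51 and 4.16 TPM against 3.32 and 3.27 TPM.

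The largest fall was that of Chil3 (chromosome 3, 106147554 to 106167564), a chitinase-like protein of alternatively activated macrophages and neutrophils. It was at 11.2 and 4.47 TPM in saline mice, 256 and 374 TPM in AP mice and 5.89 and 6.73 TPM after polyI:C, 49.9-fold lower than in AP mice (log2 fold change −5.51 ± 0.39 SE, adjusted p = 0.00371). It was the call among 11 tested alternative activation genes, whose median was −1.36. Cd36, a lipid scavenger receptor, was at 103 and 85.6 TPM against 46.4 and 28.4 TPM (adjusted p = 0.0941), and Tgm2 was at 57.9 and 67.5 TPM against 55.7 and 51.7 TPM. Of 20 tested resident and scavenger macrophage genes 3 fell, with a median of −1.10. F13a1, a clotting factor subunit made by tissue macrophages, fell from 148 and 155 TPM to 14.3 and 12.5 TPM, below the saline mice (50.6 and 28.7 TPM). The endocytic receptors Stab1 (26.3 and 24.6 TPM to 7.27 and 5.07 TPM) and Cd163 (19.7 and 21.4 TPM to 8.64 and 5.99 TPM) fell less. The complement gene C1qb, at 203 and 271 TPM against 125 and 119 TPM, did not pass (adjusted p = 0.26).

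Chemoattractant receptors, their ligands and the oxidase gene Cybb were also among the lowered genes. Of 20 tested chemoattractant receptors, 5 fell and none rose, with a median of −1.71. Ccr2 (chromosome 9, 124101950 to 124113557), through which monocytes leave the bone marrow and enter tissue, was at 36.2 and 34.4 TPM in AP mice and at 2.17 and 1.92 TPM after polyI:C (log2 fold change −3.82 ± 0.20 SE, adjusted p = 0.00274). Ccr1 fell from 47.6 and 42.1 TPM to 2.69 and 2.78 TPM, and the complement receptor C5ar1, Ptafr and the fractalkine receptor Cx3cr1 also fell. C5ar1 averaged 0.582 TPM in saline and 0.923 TPM in pretreated mice, so it passed the filter only through the AP mice. Among 23 tested chemokine ligands, Ccl2, which binds CCR2, fell from 134 and 124 TPM to 11.99 and 18.3 TPM, and Ccl9 from 196 and 194 TPM to 21.3 and 17.6 TPM. Ccl6 (255 and 257 TPM against 24.8 and 21.1 TPM) and Ccl7 (180 and 218 TPM against 39.1 and 49.6 TPM) differed by similar amounts but did not pass (adjusted p = 0.0870 and 0.17). Cxcl16 was at 39.9 and 46.1 TPM against 40.5 and 41.9 TPM, and the ligand list's median was −0.49. Of the phagocyte NADPH oxidase, which makes superoxide, the subunit Cybb fell from 19.8 and 20.2 TPM to 4.77 and 5.49 TPM. The subunit Cyba, which other cells also express, was at 148 and 187 TPM against 122 and 125 TPM (adjusted p = 0.29). Of 15 tested ITAM receptors and Src-family kinases of myeloid cells 4 fell, with a median of −1.42, and all 15 were lower in both pretreated mice.

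**Figure D5:**
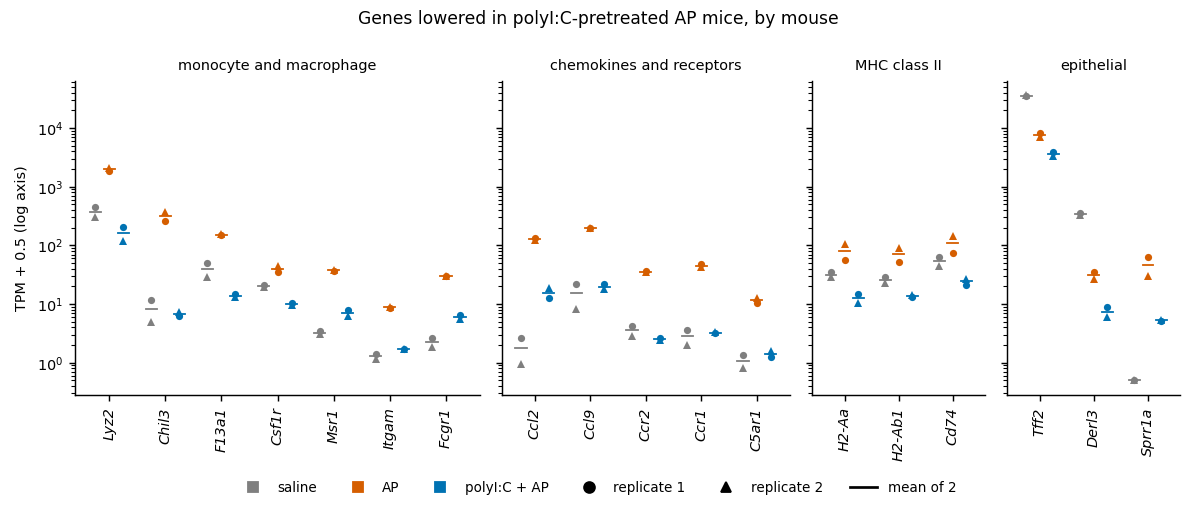
Levels (TPM + 0.5, log axis) of lowered genes in each mouse, with a bar at the mean of the 2 mice of a group. The pretreated mice lie below both AP mice for every gene. For Lyz2, F13a1, Csf1r and the class II genes they are also below the saline mice, whereas Tff2 and Derl3 are highest in saline mice.

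Of the 12 genes that the study's text names, 11 were tested and 6 fell (Ccr2, C5ar1, Ccl2, Mrc1, Fgr and Procr), with all 11 lower in both pretreated mice. Fgr averaged 0.557 TPM in saline and 0.981 TPM in pretreated mice, so like C5ar1 it passed the filter only through the AP mice. The study singled out the 12 genes in its sequencing data, so their direction here is not independent evidence. By qPCR, the study reports that polyI:C suppressed Il1b, Cxcl1 and Cxcl2, and that the other named genes were verified. Mrc1, the mannose receptor of macrophages, fell from 82.2 and 84.7 TPM to 13.8 and 11.4 TPM, below the saline mice (30.4 and 21.05 TPM). Il1b was at 4.58 and 2.99 TPM in AP mice and at 1.62 and 1.03 TPM after polyI:C and did not pass (adjusted p = 0.42).

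Coro1a, Nckap1l, Dock2, Fermt3 and Itga4 were lowered genes on no list, and the last 3 were picked after their values were seen. The actin regulator Coro1a fell from 40.8 and 51.3 TPM to 9.38 and 7.83 TPM, Nckap1l (HEM1) from 44.5 and 47.5 TPM to 11.9 and 8.49 TPM and the Rac activator Dock2 from 11.96 and 16.7 TPM to 3.60 and 3.16 TPM. Fermt3, which activates integrins, and the integrin Itga4 fell as well. Tgfbi (170 and 184 TPM to 22.9 and 36.5 TPM), Vcan (18.9 and 21.6 TPM to 7.92 and 6.46 TPM), Thbs1 and Plau, the urokinase gene, also fell. Thbs1 was the call among 29 tested stellate cell, fibroblast and matrix genes (median −0.50). The fibrillar collagen Col3a1 was at 302 and 348 TPM against 180 and 191 TPM (adjusted p = 0.36).

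The core GAGGAAG of PU.1, the lineage factor of myeloid cells, was found in the promoters of 15 of 53 lowered genes (28.3%), 9 of 61 raised genes (14.8%) and 15.8% of all tested genes with a promoter. Spi1, the gene of PU.1, was at 8.73 and 9.27 TPM in AP mice and at 2.55 and 1.52 TPM after polyI:C (adjusted p = 0.0647). The promoters of the 3 lowered genes with the largest falls among those with a match are shown with the core in capitals, because they are macrophage and myeloid genes named above. A match is again a description, and no binding was measured.

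F13a1, chr13:37050195-37050494, minus strand, GRCm38.p6: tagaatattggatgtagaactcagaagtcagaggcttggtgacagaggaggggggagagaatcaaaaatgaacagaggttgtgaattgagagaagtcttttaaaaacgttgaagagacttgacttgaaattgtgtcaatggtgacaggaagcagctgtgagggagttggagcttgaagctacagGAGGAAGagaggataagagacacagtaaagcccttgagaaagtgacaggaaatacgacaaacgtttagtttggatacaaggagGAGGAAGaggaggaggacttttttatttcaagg
Mrc1, chr2:14229164-14229463, plus strand, GRCm38.p6: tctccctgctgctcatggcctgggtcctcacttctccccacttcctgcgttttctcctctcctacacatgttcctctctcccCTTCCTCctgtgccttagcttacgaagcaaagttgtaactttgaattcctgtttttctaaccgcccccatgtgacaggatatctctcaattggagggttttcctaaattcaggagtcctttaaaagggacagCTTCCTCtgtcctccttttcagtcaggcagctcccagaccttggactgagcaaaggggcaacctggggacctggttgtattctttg
Fgr, chr4:132973845-132974144, plus strand, GRCm38.p6: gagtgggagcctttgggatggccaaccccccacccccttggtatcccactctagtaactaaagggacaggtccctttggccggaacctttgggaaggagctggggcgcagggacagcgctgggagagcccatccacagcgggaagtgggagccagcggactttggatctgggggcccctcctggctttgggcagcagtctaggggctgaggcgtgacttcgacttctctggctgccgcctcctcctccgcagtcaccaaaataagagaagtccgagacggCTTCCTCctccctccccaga

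A few lowered genes belong to the epithelium. Derl3 (chromosome 10, 75893413 to 75895941), which helps to remove misfolded proteins from the endoplasmic reticulum, was at 350 and 330 TPM in saline mice, 34.7 and 26.3 TPM in AP mice and 8.28 and 5.45 TPM after polyI:C (log2 fold change −2.09 ± 0.21 SE, adjusted p = 0.0154). It was the call among 28 tested unfolded protein response genes, and the chaperone Hspa5 (BiP) was at 1354 and 1352 TPM against 952 and 807 TPM (adjusted p = 0.0863). Tff2 (chromosome 17, 31141049 to 31144282), a trefoil peptide that protects mucosa, was at 34939.9 and 36643 TPM in saline mice, 8229 and 7063 TPM in AP mice and 3902 and 3388 TPM after polyI:C (log2 fold change −1.07 ± 0.12 SE, adjusted p = 0.0203). The amino acid transporter Slc38a5 fell from 71.5 and 51.7 TPM to 21.3 and 17.8 TPM, against 355 and 276 TPM in saline mice. For these 3 genes the pretreated mice lay farther from the saline mice than the AP mice did. Sprr1a, a squamous envelope protein listed at 0 in saline mice, fell from 62.7 and 29.8 TPM to 4.73 and 4.89 TPM.

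Many lists held few calls or none. The ductal keratins Krt8 (15874 and 17678 TPM against 15477 and 11814 TPM) and Krt19 (1016 and 1041 TPM against 767 and 769 TPM) did not pass, and the median of the 27 tested duct, keratin and metaplasia genes was 0.00. None of the tested endothelial (20, median 0.00), islet (16, median 0.00), cell cycle (29, median −0.06), cholesterol synthesis (23, median −0.10), heat shock (14, median 0.10) or cytokine and inflammasome genes (15, median −0.52) passed. Among the latter, Il18 (6.41 and 34.7 TPM after polyI:C), Casp1 (9.18 and 43.4 TPM) and Gsdmd (22.1 and 76.2 TPM) were highest in the mouse with intestinal transcripts. The adipocyte (9, median −0.46), acute phase and iron (14, median 0.10) and immediate early genes (18, median −0.37) held no call either. Nor did the 10 tested B and plasma cell genes, whose median was −1.36 with all mice and 1.18 without AP mouse 2. None of 10 tested neutrophil genes passed, with a median of −1.05. Retnlg was at 35.4 and 28.0 TPM in AP mice and at 7.53 and 1.496 TPM after polyI:C (log2 fold change −3.00 ± 0.67 SE, limma adjusted p = 0.10), and Csf3r, the G-CSF receptor gene, was at 3.48 and 3.11 TPM against 1.85 and 0.883 TPM (adjusted p = 0.34). The sum of the 17 listed neutrophil genes was 81.2 and 77.1 TPM in AP mice and 48.3 and 27.4 TPM after polyI:C. S100a8 and S100a9 were at 6.18 and 9.40 TPM and at 22.5 and 16.3 TPM in AP mice and at 11.6 and 6.16 TPM and 19.4 and 9.997 TPM after polyI:C. The 5 tested haemoglobin and red blood cell genes had a median of −1.67 with no call, and their sum was 134 and 292 TPM in AP mice and 73.3 and 44.1 TPM after polyI:C. Red cell transcripts thus moved in the same direction as the leukocyte genes, and their part in those results was not tested.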

How the data were processed

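RNA-sequencing values of 6 mouse pancreas samples were used, 4 of them for the main comparison. Per the labels and the methods, the authors used Trimmomatic for trimming, STAR with mm10 for mapping, HTSeq for counting per gene and DESeq2 for their own comparison. The deposited tables hold TPM, used as deposited. The step to TPM is not given in the sources used here. Identifiers were matched to GENCODE M21 (GRCm38; 22490 of 22556 found). Log2(TPM + 0.5) of genes averaging at least 1 TPM was fitted in limma 3.58.1 (R 4.3.3) with a coefficient for each group and all 6 mice, leaving 3 residual degrees of freedom. The prior variance followed log2(mean TPM × exon length + 1). The design took groups from the labels. The fit was tested on simulated data. Reads per library were estimated from steps between low TPM values, of which 51.2% to 62.4% lay within 0.1 of a whole step.

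The 35 gene lists and the members were chosen with earlier results of these data known, and the intestinal list after the values were seen. Named genes were the 15 largest rises and falls with at least 10 TPM and list members past the test, up to 8 a list, or the most abundant ones where fewer than 3 passed; other genes were chosen after their values were seen. No called gene had under 200 exonic bases. Alternatives were other pseudocounts, filters, scalings, priors, voom, a replicate block and leaving out each mouse. Results for some genes are not reported here.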

Additional observations from a re-analysis of the deposited data

How the results depend on the processing

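The 74 raised and 68 lowered genes depended on how the spread was modelled. With a prior following mean log2 TPM, 14 were raised and 14 lowered, and with one prior for all genes, 22 and 19. Without a filter 44 were raised. Without the saline mice 142 were lowered, voom on estimated reads gave 112 raised and 210 lowered, and an unadjusted p gave 327 and 401. Leaving out each mouse in turn gave 0 to 63 raised and 0 to 78 lowered genes. At an unadjusted p, chosen after seeing the data, 258 were raised and 363 lowered without pretreated mouse 2, and 379 and 268 without AP mouse 2; 69 and 66, and 67 and 68, of the called genes were among them. No called gene changed direction in any alternative in which it was tested. Their groups did not overlap, so leaving out a mouse or changing the pseudocount, prior or filter could not reverse them. Of the 16 raised interferon effectors and the 10 lowered monocyte and macrophage genes, the count became 4 and 3 with the prior following mean log2 TPM, 3 and 2 with one prior, 9 and 7 without a filter and 23 and 19 with voom. Over the alternatives the list medians ranged from 0.99 to 1.24 (interferon effectors), 0.78 to 1.14 (MHC class I), 0.55 to 0.72 (acinar regulators), −2.58 to −1.32 (MHC class II) and −1.61 to −1.32 (monocyte and macrophage). The replicate numbers did not pair the mice (correlation of deviations 0.0351 between AP and pretreated mice), and a replicate block gave 62 raised and 62 lowered genes, 59 and 54 of them shared. The cause of these differences was not tested. The depth, about 3296942 reads in the shallowest library, limits genes near 1 TPM.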
